A study of Mus musculus with 31 samples.

Results

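The 10 genes described here are the TEAD and Hippo pathway genes Tead1, Tead2, Tead3, Tead4, Yap1, Wwtr1, Lats1, Lats2, Ajuba and Amotl2. They were taken by name from 21938 protein-coding genes of the mouse GENCODE annotation (build mm10). The readout was the list of 63456 accessible regions (peaks) called from a single ATAC-seq library. It was made from the parental NIH-3T3 line, mouse embryonic fibroblasts to which no transcription factor (TF) gene had been added. A peak was counted for a gene when its interval lay within 1 kb of any annotated transcript start, or when its summit, the base with the highest fragment pileup, lay in the gene body or within 50 kb of the gene. By this rule 103 peaks were counted, each for 1 gene. Per the labels, 50000 cells were treated with 0.5 µM of the transposase Tn5, which cuts and tags DNA that is not packed away, and 12 cycles of PCR followed. The other 30 of 31 samples, in which TFs or the transactivator rtTA3G alone were expressed, were not analysed here.

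TEAD proteins are TFs that bind DNA but need a partner to activate transcription. The partners YAP (gene Yap1) and TAZ (gene Wwtr1) are coactivators that move between cytoplasm and nucleus. When the Hippo kinase cascade is active, the kinases LATS1 and LATS2 phosphorylate YAP and TAZ and keep them out of the nucleus. Ajuba is a LIM-domain protein that binds and restrains LATS kinases, and Amotl2 is an angiomotin family protein that binds YAP. In fibroblasts the pathway is known for its response to cell density, substrate stiffness and serum.

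With 1 library there are no replicates, so all values describe this library and no test between samples was made. Fold enrichment is the fragment pileup at the summit over the pileup expected locally, with 1 added to each. The number of fragments at each summit was solved from the deposited fold and p-value, and the intervals given are exact 95% Poisson intervals on that number. They cover counting error only, and since a summit is the highest point of its peak they are not intervals for a random position. The peak list does not give the total depth of the library. Accessibility of a promoter is not a measure of expression. Of the markers listed for other cell types, a start peak was found for 10 of 10 fibroblast genes, 3 of 8 epithelial, 1 of 6 blood, 2 of 4 endothelial, 0 of 4 neuronal and 0 of 4 pluripotent genes.

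All 10 genes had an accessible promoter. A peak within 1 kb of a start was present at 10 of 10, against 53.7% of protein-coding genes (11788 of 21938). In 4 of the 10 genes a start peak also lay within 1 kb of a start of another gene. Most of these start peaks were wide and lower than those of the median protein-coding gene. The median fold enrichment of the strongest start peak was 7.54 over the 10 genes, against 9.86 over protein-coding genes with such a peak (quartiles 7.27 and 12.4). The median number of fragments at the summit was 54.5 against 64, and the median expected pileup was 6.39 against 5.50. The median width of the strongest start peak was 1263.5 bp against 796 bp. It was at least 1 kb wide in 8 of the 10 genes, against 27.5% of protein-coding genes with a start peak, a width limit chosen after the values were seen.

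Wwtr1 had the highest start peak of the 10 and Tead2 the lowest. Fold enrichment was 12.0 at Wwtr1 (interval 9.95 to 14.4), 9.51 at Yap1 (7.34 to 12.1), 8.91 at Lats2 (6.75 to 11.6) and 8.53 at Amotl2 (6.87 to 10.5). It was 7.55 at Tead1 (5.29 to 10.5), 7.54 at Lats1 (5.54 to 10.0), 7.29 at Tead4 (5.98 to 8.81) and 6.63 at Ajuba (5.01 to 8.61). The lowest values were 5.34 at Tead3 (3.88 to 7.17) and 4.34 at Tead2 (2.73 to 6.59). Neighbours in this order had overlapping intervals throughout. The interval of Wwtr1 did not overlap those of Tead4, Ajuba, Tead3 and Tead2. Only Wwtr1 lay above the median of protein-coding genes, at percentile 71.8 of those with a start peak, while Tead2 was at percentile 5.62 and Tead3 at 11.1.

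**Figure D1:**
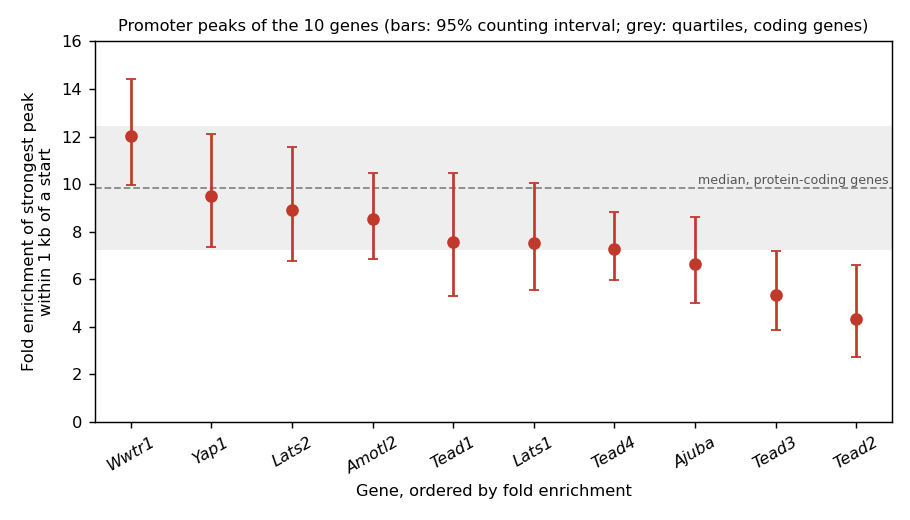
Fold enrichment at the summit (y axis, no unit) of the strongest peak within 1 kb of a start of each of the 10 genes (x axis, ordered by value) in 1 library. Points are the values, bars the 95% counting intervals, the dashed line the median of protein-coding genes with a start peak (9.86) and the grey band their quartiles (7.27 to 12.4); Wwtr1 at 12.0 lies above the line and the other genes below it.

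The order by fragments at the summit differed from that by fold. Tead4 was at percentile 84.8 by its 106 fragments and at percentile 25.2 by fold, since 13.7 fragments were expected locally. Amotl2 was at percentile 74.9 by its 89 fragments, with 9.55 expected, and at 36.8 by fold. Wwtr1 stood high by both measures, with 115 fragments over 8.64 expected. Tead2 stood low by both, with 20 fragments over 3.84 expected.

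The promoter sequences under these peaks are shown for the 6 genes whose promoter held the letters of the TEAD motif, 1 entry for each gene, and the peaks cover these entries whole. They are RefSeq promoters of build GRCm38.p6 (the same build as mm10), each 250 bases before to 50 after a start, written 5′ to 3′ on the strand of the gene. Capitals mark matches on either strand to CATTCC (TEAD, reverse complement GGAATG), to the GC box GGGCGG (reverse complement CCGCCC) and to CCAAT.
Tead3, chr17:28350551-28350850, minus strand: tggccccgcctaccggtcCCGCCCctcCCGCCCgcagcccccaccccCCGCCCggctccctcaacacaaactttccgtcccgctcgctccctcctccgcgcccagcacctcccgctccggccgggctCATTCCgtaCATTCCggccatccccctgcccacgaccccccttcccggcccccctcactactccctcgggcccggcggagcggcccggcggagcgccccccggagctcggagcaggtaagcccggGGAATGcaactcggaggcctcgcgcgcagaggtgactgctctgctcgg
Yap1, chr9:8004547-8004846, minus strand: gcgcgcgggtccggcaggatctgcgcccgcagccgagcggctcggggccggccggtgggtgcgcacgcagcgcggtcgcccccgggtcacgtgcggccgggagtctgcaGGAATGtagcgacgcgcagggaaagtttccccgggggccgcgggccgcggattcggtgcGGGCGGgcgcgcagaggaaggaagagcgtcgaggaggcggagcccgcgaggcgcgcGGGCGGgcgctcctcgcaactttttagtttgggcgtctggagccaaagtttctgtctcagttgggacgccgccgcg
Wwtr1, chr3:57575861-57576160, minus strand: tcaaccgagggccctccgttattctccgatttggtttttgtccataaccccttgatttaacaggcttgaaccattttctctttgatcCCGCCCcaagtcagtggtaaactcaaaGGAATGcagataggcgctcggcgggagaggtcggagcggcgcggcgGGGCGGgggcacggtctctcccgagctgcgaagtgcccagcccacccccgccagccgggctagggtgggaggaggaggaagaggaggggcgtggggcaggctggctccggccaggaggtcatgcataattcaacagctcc
Lats2, chr14:57746074-57746373, minus strand: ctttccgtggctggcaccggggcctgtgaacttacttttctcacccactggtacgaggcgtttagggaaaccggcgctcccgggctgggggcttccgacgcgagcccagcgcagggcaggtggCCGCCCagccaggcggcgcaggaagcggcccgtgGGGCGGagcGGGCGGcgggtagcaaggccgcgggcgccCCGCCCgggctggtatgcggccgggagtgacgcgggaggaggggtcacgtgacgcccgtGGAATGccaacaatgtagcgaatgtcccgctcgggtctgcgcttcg
Ajuba, chr14:54577612-54577911, minus strand: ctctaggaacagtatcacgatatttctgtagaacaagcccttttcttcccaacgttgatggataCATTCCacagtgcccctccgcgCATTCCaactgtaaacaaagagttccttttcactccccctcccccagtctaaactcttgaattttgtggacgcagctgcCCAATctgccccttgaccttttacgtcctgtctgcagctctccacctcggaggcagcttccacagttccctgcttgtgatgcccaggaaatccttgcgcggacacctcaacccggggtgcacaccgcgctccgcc
Amotl2, chr9:102717554-102717853, plus strand: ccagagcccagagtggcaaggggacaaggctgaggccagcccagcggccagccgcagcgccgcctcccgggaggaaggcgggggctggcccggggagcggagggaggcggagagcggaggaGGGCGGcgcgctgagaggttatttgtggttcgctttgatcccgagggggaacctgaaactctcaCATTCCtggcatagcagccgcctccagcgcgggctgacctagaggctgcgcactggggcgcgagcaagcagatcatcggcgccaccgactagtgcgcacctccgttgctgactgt

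RefSeq held 12 promoter entries for 8 of the 10 genes, with none for Tead1 and Tead4. The start lay under a peak in 11 of the 12, the exception being the second entry of Lats2, whose start was 4254 bp from the nearest peak. The TEAD letters were found in at least 1 entry of 6 of the 8 genes (Tead3, Yap1, Wwtr1, Lats2, Ajuba and Amotl2, not Tead2 and Lats1), against 16.6% of the 27025 genes with an entry. By entry the letters were in 8 of 12, against 14.7% of all 32851 entries and 11.5% of the 10850 entries whose start lay under a peak. Entries of the same gene overlap for Tead3 and Wwtr1, so they are not separate promoters. In the sequences shown, the TEAD match began at positions −123, −114 and 2 in Tead3, −141 in Yap1, −136 in Wwtr1, 4 in Lats2, −186 and −164 in Ajuba and −65 in Amotl2, counted from 0 at the start. A match of these letters is a description and not a binding site, and the count over promoter entries was made after earlier results were known. Within 50 bases of the summit, the TEAD letters lay in 1 of the 15 start peaks of the 10 genes, that of Lats2. The share over all peaks within 1 kb of a start was 5.10%.

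Most bases of these promoters were G or C, except in the second entry of Lats2. The GC box was found in 7 of the 8 genes, all but Ajuba, against 38.2% of genes with an entry and 67.9% of the entries whose start lay under a peak. The AP-1 letters TGANTCA and the TATA box TATAAA were found in none of the 12 entries of the 8 genes. The shares were 7.81% and 13.6% of all entries and 5.66% and 5.94% of those with a start under a peak. Outside these entries, AP-1 letters lay within 50 bases of the summit of the Yap1 start peak. This was 1 of the 15 start peaks of the 10 genes, against 9.78% of all peaks within 1 kb of a start. The ETS letters CCGGAAG, the CRE letters TGACGTCA and the NRF1 motif were also found in none of the 12 entries. The shares were 8.86%, 1.79% and 4.60% of all entries and 20.8%, 3.70% and 11.8% of those with a start under a peak. CCAAT was found in 1 of the 12 entries, that of Ajuba (position −85), against 37.4% of all entries and 39.9% of those with a start under a peak. Among the entries with a start under a peak, GC content ran from 54% to 75.3%. Their ratio of observed to expected CpG ran from 0.534 in Tead2 to 1.23 in Yap1. Most of them lay below 0.8, the median over all entries with a start under a peak.

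Among the TEAD genes, Tead1 was the longest (chr7:112679318-112906807, 227.5 kb, plus strand) and had 11 summits in its body and 4 outside within 50 kb, start peaks included here and for each gene that follows. Its promoter carried a pair of start peaks. The stronger, chr7:112678532-112679376, had a fold of 7.55 and a −log10 q of 19.2 with its summit 383 bp before the first start, and the weaker, chr7:112679726-112680061, had a fold of 4.31. Both also lay within 1 kb of a start of 2310014F06Rik, so they cannot be assigned to Tead1 alone.

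The strongest intronic peaks of Tead1 had folds of 10.3 (144.5 kb from the first start), 9.57 (40.8 kb) and 9.45 (134.7 kb), with 42, 56 and 35 fragments. Their intervals (7.52 to 13.9, 7.27 to 12.4 and 6.67 to 13.0) overlapped that of the start peak (5.29 to 10.5). The distal part of the gene was bare. No peak was listed from chr7:112833426 to chr7:112956807, the last 123 kb of the window, which include the 3′ end of the gene and all 50 kb after it. Annotated internal starts were also without a peak nearby. A group of starts of protein-coding and other transcripts at chr7:112759384-112759546 lay 1216 to 1378 bp from a small peak of fold 4.46, and only 4 of 13 distinct starts of Tead1 lay within 1 kb of a peak.

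Tead2, known from early embryonic development, had the lowest start peak of the 10 genes and the least DNA under peaks. The gene (chr7:45215753-45233644, 17.9 kb, plus strand) had start peaks at chr7:45215689-45216137 with a fold of 4.34 and −log10 q of 6.71 and at chr7:45216622-45216729 with a fold of 3.22 and −log10 q of 2.99. The only other peak within 50 kb, of fold 4.80, lay at the start of Slc6a21. No promoter-distal peak, one more than 1 kb from every annotated start of any gene, was counted for Tead2. Its peaks covered 885 bp in all, against 2874 to 9465 bp in the other 9 genes.

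Tead3 (chr17:28331671-28350817, 19.1 kb, minus strand) had a single broad start peak, chr17:28349961-28351280, with a fold of 5.34, a −log10 q of 16.7 and 42 fragments. No summit lay within its body. All 5 of its summits lay outside, and the highest were downstream at starts of other genes, with folds of 9.22 at Fance and 6.29 at Rpl10a. The upstream pair of distal peaks had folds of 4.40 and 4.10.

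Tead4 (chr6:128224288-128300823, 76.5 kb, minus strand) had 8 summits in its body and 5 outside. Its main start peak, chr6:128299842-128301050, had a fold of 7.29 and a −log10 q of 53.0. A second start peak, chr6:128275624-128275996, with a fold of 5.01 and 30 fragments, lay 47 bp from the start of the shorter protein-coding transcript of Tead4, 25.1 kb into the gene. Between these starts the first introns held a cluster of peaks. The highest, chr6:128282145-128282767, had a fold of 12.2, a −log10 q of 107.9 and 153 fragments, the most fragments at any distal peak of the 10 genes, and its interval (10.3 to 14.3) did not overlap that of the main start peak (5.98 to 8.81). The highest fold within 50 kb of any of the 10 genes, 18.7 with 195 fragments, was at chr6:128200171-128201290 downstream of Tead4, at the start of the predicted gene Gm10010.

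**Figure D2:**
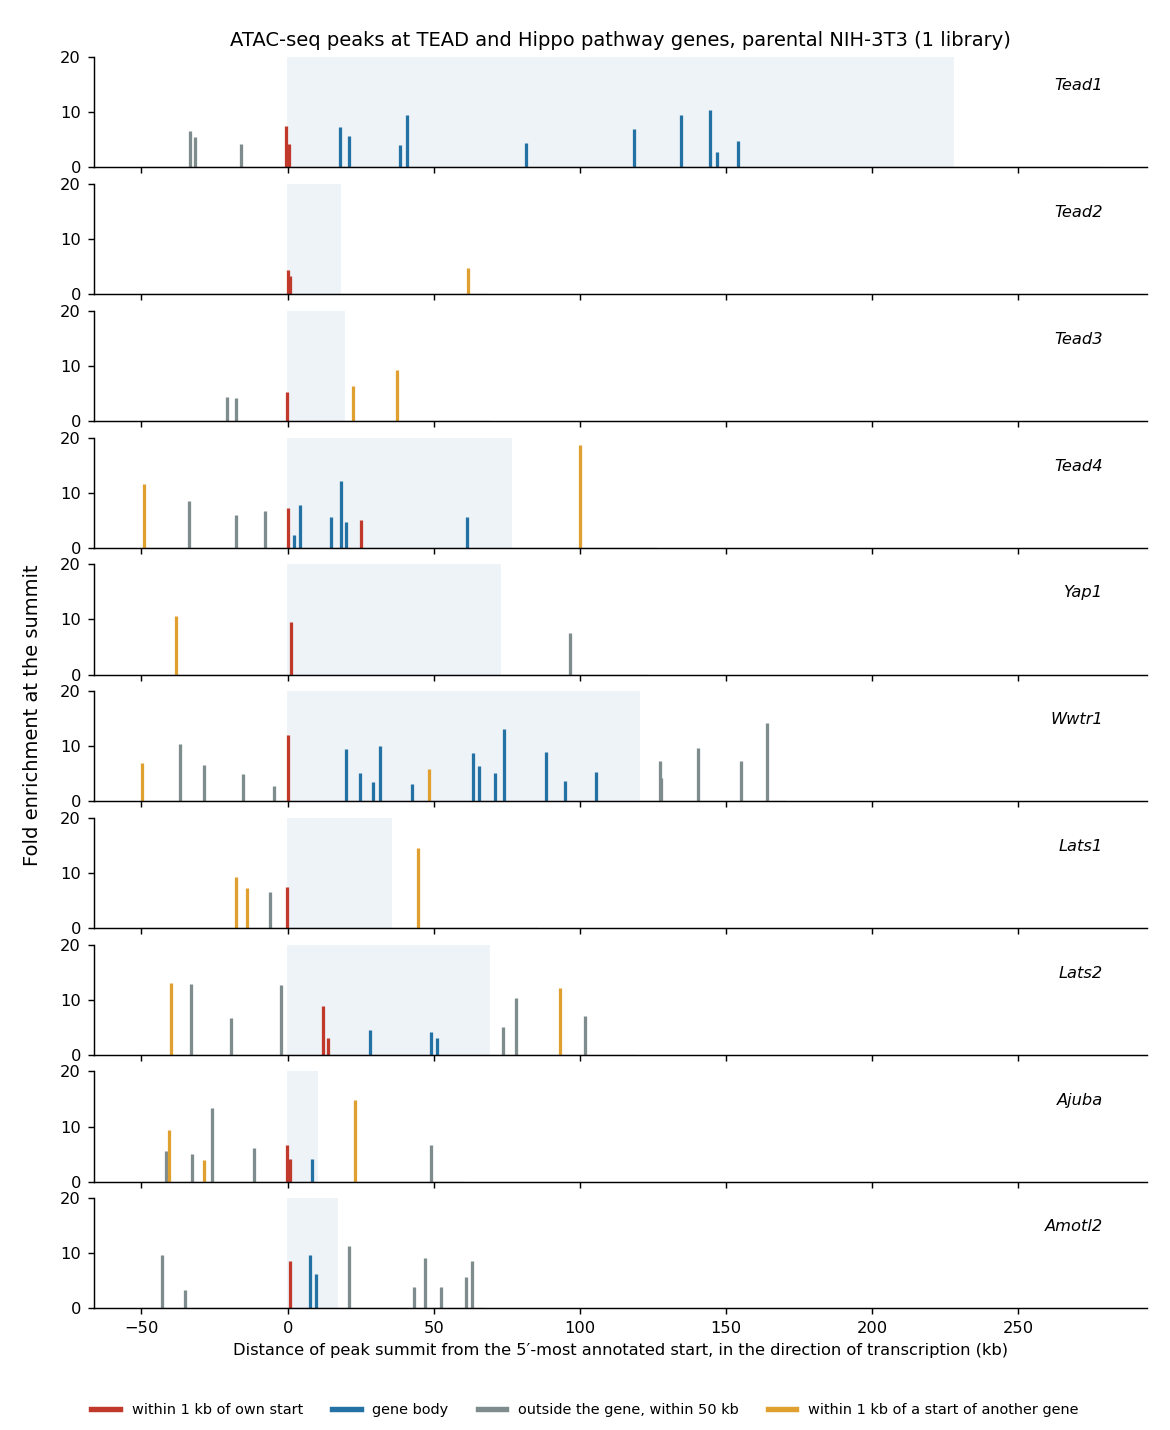
Fold enrichment (y axis, no unit) of all 103 peaks against the distance of the summit from the 5′-most annotated start in the direction of transcription (x axis, kb), 1 panel per gene, in 1 library. Shading is the gene body and colours give the place of the peak; Tead1, Tead4 and Wwtr1 hold peaks along their bodies, while the bodies of Tead2, Tead3, Yap1 and Lats1 are empty beyond the promoter.

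The coactivator genes were unlike in their surroundings. Yap1 (chr9:7931999-8004596, 72.6 kb, minus strand) had the widest start peak of the 10, chr9:8003368-8005159, 1792 bp wide with a fold of 9.51 and a −log10 q of 39.9. It covered 5 of 7 annotated starts, and its summit lay in an exon 1067 bp after the first start. It also lay within 1 kb of a start of Gm45494. Beyond this peak the body of Yap1 held 0 peaks. A body without further peaks was seen in 25.9% of the 1752 protein-coding genes of 50 to 100 kb with a start peak, for which the median was 1. Outside within 50 kb lay 2 peaks, with folds of 10.5 at the start of Cfap300 and 7.50 at the distal chr9:7907476-7908030, and 95.3 kb between the latter and the promoter held none.

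Wwtr1 (chr3:57455649-57575910, 120.3 kb, minus strand) had the most peaks, with 14 summits in its body and 10 outside, and 21 of the peaks were promoter-distal. Protein-coding genes had a median of 1 summit in the body and 4 outside within 50 kb. The start peak chr3:57575364-57576821 had a fold of 12.0, a −log10 q of 81.6 and a width of 1458 bp, and covered both annotated starts. The highest peaks around it were at chr3:57411388-57412097 downstream (fold 14.2, 77 fragments), at chr3:57501448-57502110 in an intron (13.2, 115 fragments), and upstream at chr3:57612594-57612905 (10.5, 44 fragments). The downstream one lay 43835 bp past the gene, and its nearest protein-coding start was that of Tm4sf4, 13500 bp away. Tm4sf4 also had the nearest protein-coding start for the other downstream peaks and for some in the Wwtr1 body. The longest stretch without a peak in the Wwtr1 window was 21.6 kb, the shortest of the 10 genes, next to 21.9 kb for Lats2. Peaks of Wwtr1 covered 9465 bp, the most of the 10, in a window of 220.3 kb, or 10.9 peaks per 100 kb. Ajuba had 9.99 and Amotl2 9.42 per 100 kb, while Yap1 had 1.74. Within the gene body, start peaks included, Wwtr1 had 11.6 summits per 100 kb, below Ajuba (19.8) and Amotl2 (17.9) and near Tead2 (11.2). Without start peaks the body densities were 10.8 for Wwtr1, 9.91 for Ajuba, 11.9 for Amotl2 and 0 for Tead2. The part of gene length and of neighbouring genes in these differences was not tested.

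The kinase genes also differed, with 5 peaks for Lats1 and 13 for Lats2. Lats1 (chr10:7681214-7716460, 35.2 kb, plus strand) had its start peak at chr10:7680635-7681952, with a fold of 7.54, a −log10 q of 24.5 and a width of 1318 bp, also within 1 kb of a start of Pcmt1. The summit of this peak lay 2 bp from a start of Pcmt1 and 76 bp from that of Lats1, so the peak cannot be assigned to Lats1 alone. The body of Lats1 held no summit, and the internal start of 2 further protein-coding transcripts lay 9295 bp from the nearest peak. The other peaks within 50 kb were mostly at starts of other genes, with folds of 14.5 at Katna1, 9.36 at Pcmt1 and 7.36 at Nup43, while the 1 distal peak, chr10:7675018-7675335, had a fold of 6.63.

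Lats2 (chr14:57689662-57758388, 68.7 kb, minus strand) had its start peak at an internal group of starts. The peak chr14:57745697-57746703 had a fold of 8.91 and a −log10 q of 33.6 over starts 11810 to 12283 bp inside the gene, and also lay within 1 kb of a start of the overlapping gene Gm49361. A second, chr14:57744552-57744801, had a fold of 3.08. The 5′-most annotated start of Lats2, of a protein-coding transcript, lay 1922 bp from a higher peak, chr14:57760310-57761053, with a fold of 12.7 and 73 fragments. Other high distal peaks had folds of 12.9 at chr14:57791244-57791679, 32.9 kb upstream, and 10.4 at chr14:57680040-57680401 downstream. Their nearest protein-coding starts were those of Sap18 and Xpo4. Peaks within the Lats2 body were low, at 3.06, 4.21 and 4.50. Peaks at the starts of the neighbours Sap18 and Xpo4 had folds of 13.1 and 12.1.

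The regulators were short genes with most of their peaks outside. Ajuba (chr14:54567472-54577558, 10.1 kb, minus strand) had start peaks at chr14:54577294-54578458 with a fold of 6.63 and −log10 q of 25.9 and at chr14:54575763-54576813 with a fold of 4.16 and −log10 q of 9.96. Both were over 1 kb wide. Of 9 summits outside, the highest had a fold of 14.8 at the start of Haus4, and the highest distal one was chr14:54603092-54603629, with a fold of 13.3 and 90 fragments, 25.9 kb upstream. This distal summit lay within the gene 4931414P19Rik, 2499 bp from a protein-coding start of that gene.

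Amotl2 (chr9:102716672-102733418, 16.7 kb, plus strand) had a start peak at chr9:102717057-102718674, 1618 bp wide, with a fold of 8.53 and a −log10 q of 50.7. It covered 6 of 13 distinct starts, and the first starts of the gene lay 385 and 255 bp before it. All 10 other Amotl2 peaks were promoter-distal. The highest were chr9:102737289-102737834 after the gene (fold 11.3), chr9:102673318-102673844 (9.78, 43.1 kb upstream) and chr9:102724026-102724460 in an intron (9.66, with 89 fragments, as many as at the start peak).

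**Figure D3:**
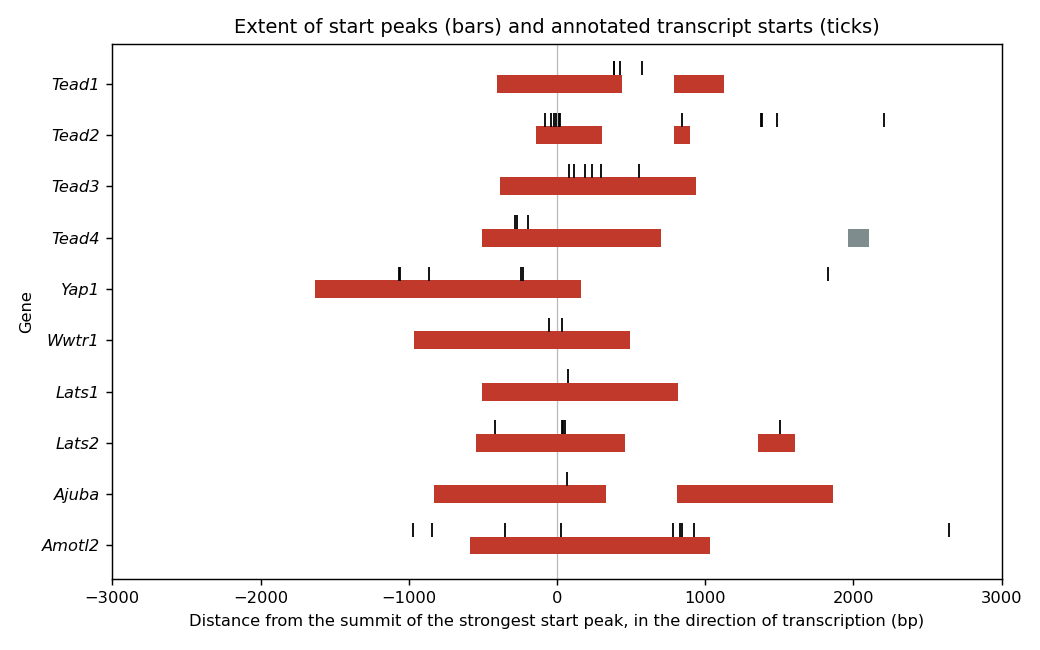
Extent of peaks (bars, red within 1 kb of a start of the gene, grey otherwise) and annotated transcript starts (ticks) of each gene, against the distance from the summit of its strongest start peak in the direction of transcription (x axis, bp). The bar of Yap1 is the widest at 1792 bp, and Tead2 has the narrowest strongest start peak at 449 bp.

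Over the 10 genes, 39 of 76 distinct annotated start positions lay under a peak and 46 lay within 1 kb of one. Of 46 summits in gene bodies, 40 were in introns and 6 in exons. Of the 88 peaks that were not start peaks, 29 had a higher fold than every start peak of the same gene, and each of the 10 genes had at least 1, as did 64.1% of protein-coding genes with a start peak. The counting interval lay above that of the strongest start peak for 6 of the 29, at Tead4, Lats1 and Ajuba. Of the 29, 17 were promoter-distal, in 6 genes. The 72 promoter-distal peaks had a median fold of 6.37, against 5.54 over all 47192 such peaks of the list, and a median width of 306.5 bp against 278 bp. For 50 of the 72, the nearest protein-coding start was that of the gene they were counted for and the others lay nearer to a start of another gene.

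The distal summits below are shown as strong summits of their loci with AP-1 or TEAD letters, as windows that hold such letters more than once or together, and, in the last 3 lines, as strong summits with neither. Neither motif was found in 42 of the 72 distal windows. Outside the window, the Wwtr1 peak of fold 13.2 held both motifs and the Ajuba peak of fold 13.3 held AP-1 letters. AP-1 is the dimeric TF of the FOS and JUN families, which often shares enhancers with TEADs. Each holds the summit and 50 bases to either side, build mm10, plus strand, with capitals for TGANTCA (AP-1, its own reverse complement) and for CATTCC or GGAATG (TEAD).
Wwtr1, chr3:57411764-57411864, fold 14.2: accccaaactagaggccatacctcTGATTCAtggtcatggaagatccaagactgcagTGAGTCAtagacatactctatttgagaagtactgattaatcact
Wwtr1, chr3:57612695-57612795, fold 10.5: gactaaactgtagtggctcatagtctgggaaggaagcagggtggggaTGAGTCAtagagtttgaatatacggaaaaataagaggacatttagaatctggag
Lats2, chr14:57760578-57760678, fold 12.7: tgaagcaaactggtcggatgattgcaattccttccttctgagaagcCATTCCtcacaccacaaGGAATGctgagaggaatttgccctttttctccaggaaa
Lats2, chr14:57791268-57791368, fold 12.9: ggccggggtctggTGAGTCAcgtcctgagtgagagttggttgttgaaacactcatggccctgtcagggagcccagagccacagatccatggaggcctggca
Amotl2, chr9:102779657-102779757, fold 8.61: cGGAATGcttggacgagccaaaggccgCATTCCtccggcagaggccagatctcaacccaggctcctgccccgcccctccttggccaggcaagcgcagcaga
Amotl2, chr9:102737534-102737634, fold 11.3: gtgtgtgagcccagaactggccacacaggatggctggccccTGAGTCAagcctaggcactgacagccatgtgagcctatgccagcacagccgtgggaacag
Tead4, chr6:128282427-128282527, fold 12.2: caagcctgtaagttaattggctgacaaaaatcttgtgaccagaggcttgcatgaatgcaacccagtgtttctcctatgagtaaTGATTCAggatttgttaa
Tead4, chr6:128285901-128286001, fold 5.54: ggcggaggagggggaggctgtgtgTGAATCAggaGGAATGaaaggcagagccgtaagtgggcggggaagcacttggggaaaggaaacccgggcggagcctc
Tead1, chr7:112697136-112697236, fold 7.26: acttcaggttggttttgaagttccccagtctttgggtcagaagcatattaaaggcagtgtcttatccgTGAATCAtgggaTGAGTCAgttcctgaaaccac
Tead1, chr7:112823796-112823896, fold 10.3: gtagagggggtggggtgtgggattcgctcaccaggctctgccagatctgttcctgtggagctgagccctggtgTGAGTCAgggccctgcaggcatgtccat
Ajuba, chr14:54603444-54603544, fold 13.3: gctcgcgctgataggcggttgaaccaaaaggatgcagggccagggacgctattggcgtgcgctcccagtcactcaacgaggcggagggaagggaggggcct
Wwtr1, chr3:57501864-57501964, fold 13.2: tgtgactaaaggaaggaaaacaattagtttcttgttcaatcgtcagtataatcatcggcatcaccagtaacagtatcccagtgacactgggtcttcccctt
Lats2, chr14:57680137-57680237, fold 10.4: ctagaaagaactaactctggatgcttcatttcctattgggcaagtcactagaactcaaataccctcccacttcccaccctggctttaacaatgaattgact

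The AP-1 letters lay in 23 of the 72 distal summit windows, or 31.9% (exact binomial interval 21.4% to 44.0%), and in 31.9% of all distal windows of the list (15052 of 47192). The share over the list thus lay within the counting interval of the 10 genes. In windows 500 bp to either side it was 1.39%, against 3.18% over the list. Distal peaks with the AP-1 letters had a median fold of 7.26 and those without 5.70, against 6.30 and 5.25 over the list. Wwtr1 had 9 of the 23 peaks with AP-1 letters, Tead4 had 4 and Amotl2 had 3. Some of the 9 lay nearer to the start of Tm4sf4 than to that of Wwtr1. Tead2 had no distal peak. The 1 distal peak of Yap1 had none of these letters in its summit window, though 1 match lay elsewhere in the peak.

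The TEAD letters lay in 8 of the 72 windows, or 11.1% (4.92% to 20.7%), against 9.52% over the list. In the flanking windows they were found in 8.33%, against 5.39% over the list, and the flank share of the 10 genes lay within the counting interval of their summit share. The longer form ACATTCC was found in 1 window (1.39%, interval 0.0352% to 7.50%), against 3.06% of the list. Both AP-1 and TEAD letters were found in 1 window, the Tead4 intron peak of fold 5.54 shown above, against 2.92% of the list. Each of these list shares lies within the counting interval of 1 window. A pair of TEAD matches was found in 2 windows, the Lats2 peak of fold 12.7 before the 5′-most start and the Amotl2 peak of fold 8.61, against 0.519% of the list (245 peaks). In both the pair lay in opposite orientations, CATTCC followed by GGAATG in Lats2 and the reverse in Amotl2. For AP-1, 2 or more matches were found in 2 windows, against 3.08% of the list. No counting interval was computed for these pair counts, so neither can be told apart from the list share. For comparison, the SRF CArG box was in 0 of 72 windows, which allows a share of up to 4.99% by the exact binomial interval. This count is not distinguishable from the 0.625% of the list. The RUNX letters TGTGGT were found in 5 windows, or 6.94% (2.29% to 15.5%). The 13.2% of the list lies within this interval.

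By count, AP-1 letters were more frequent among the stronger distal peaks. They were found in 3 of 23 peaks with a fold below 5, in 13 of 38 with a fold of 5 to 10, and in 7 of 11 with a fold of 10 or more. Over the whole list the shares were 25.1%, 34.3% and 44.1%, which all lie within the counting intervals of the 10 genes. The intervals of the weakest (2.78% to 33.6%) and strongest peaks (30.8% to 89.1%) overlapped. The TEAD letters were found in 4, 3 and 1 of these peaks, and in 8.90%, 9.64% and 10.9% of the list. The fold limits were set after the values were seen.

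**Figure D4:**
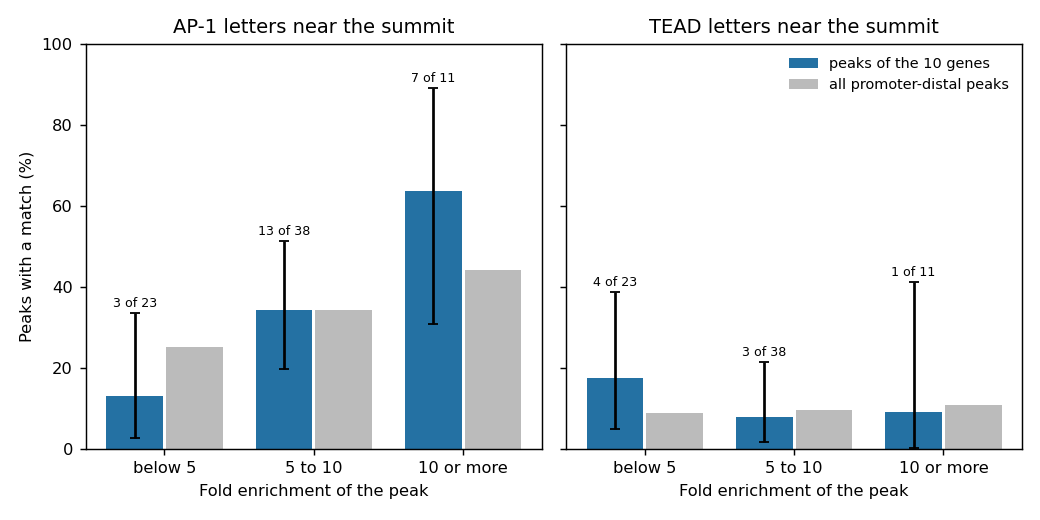
Share of promoter-distal peaks (y axis, %) with the AP-1 letters TGANTCA (left) or the TEAD letters CATTCC (right) within 50 bp of the summit, by fold enrichment of the peak (x axis). Blue bars are the 72 peaks of the 10 genes with exact 95% binomial intervals and their counts, and grey bars all 47192 promoter-distal peaks; AP-1 rises with fold in both, from 3 of 23 to 7 of 11 at the 10 genes.

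Most other genes of the pathway had an accessible start. Of 52 further genes listed by role, 42 had a peak within 1 kb of at least 1 start (80.8%, against 53.7% of protein-coding genes), with a median fold of 7.93. All 13 kinases and adaptors of the cascade had one, with a median of 10.4 and the highest values at Mob1a (15.4), a LATS coactivator, and Nf2 (15.2), the upstream scaffold merlin. All 4 angiomotins and LIM relatives had one, led by Amot (12.2) and Amotl1 (8.14). The median of the kinases and adaptors was above that of the 10 genes (7.54).

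The pathway genes without a start peak were surface regulators, TEAD cofactors and targets, although most targets had one. Over all protein-coding genes 53.7% had a start peak, and the counts for surface regulators and cofactors were near that share. Of 9 junction and surface regulators 4 had one, among them Ptpn14 (7.50), while the giant cadherins Fat4 and Dchs1 and the polarity genes Crb1, Crb2 and Crb3 had none within 1 kb. Of 4 TEAD cofactors, Vgll4 (11.3) and Vgll3 (7.96) had one, and Vgll1 and Vgll2 had none. Of 22 target genes of YAP, TAZ and TEAD known from the literature, 19 had a start peak, with a median of 6.59, and Tgfb2, Igfbp3 and Nt5e had none. The nearest peak lay 1100 bp from a start of Crb3 and 1791 bp from one of Nt5e, and a limit of 2 kb would count both, giving 84.6% of the 52 genes. The matricellular genes Ccn1 and Ccn2 (also named Cyr61 and Ctgf) had folds of 5.07 and 8.82, and the highest were Ankrd1 (11.5) and F3 (11.1), which encodes tissue factor. The difference between these role groups was not tested.

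**Figure D5:**
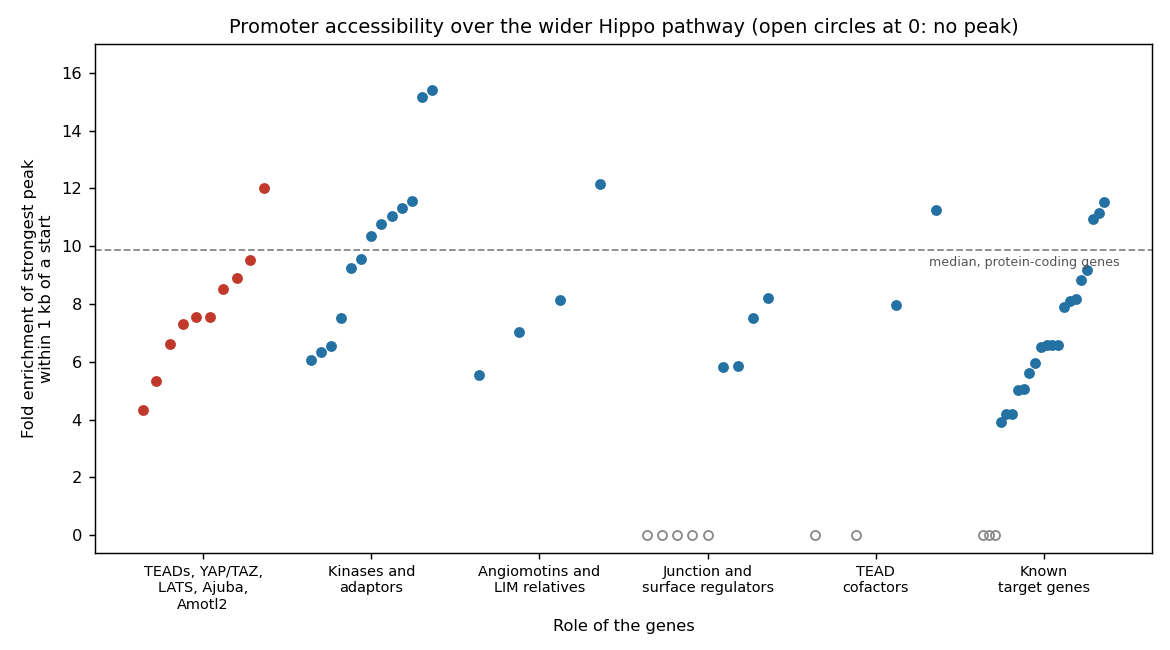
Fold enrichment (y axis, no unit) of the strongest peak within 1 kb of a start for the 10 genes (red) and 52 further pathway genes (blue) by role (x axis), in 1 library. Each point is 1 gene, open circles at 0 are genes without a start peak, and the dashed line is the median of protein-coding genes with one (9.86); the kinases and adaptors all have a start peak, with 6.06 the lowest and 15.4 the highest.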

How the data were processed

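ATAC-seq of parental NIH-3T3 cells (1 library, paired-end) was analysed from the deposited peak list. Per the submitters' processing notes and the methods, the authors mapped reads to mm10 with STAR 2.5.3a, kept unique alignments on the autosomes and sex chromosomes, discarded duplicates (Picard) and ran MACS2 2.1.1.20160309 per sample in paired-end mode. No Tn5 shift is described, and removal of input and blacklisted peaks is stated for ChIP-seq and referred to for ATAC-seq. Doxycycline is described for NIH-3T3 cells in general and not for this library.

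The authors deposited for each peak a fold enrichment (a ratio), a −log10 p-value and −log10 q-value, a score and the summit offset. Summit fragments were solved from fold and −log10 p (tested on simulated data), within 0.000186 of whole numbers at the 103 peaks. Coordinates are 1-based, and gene models were GENCODE release 21 (GRCm38). Named were all 10 genes with their start peaks and strongest distal peaks, and of the pathway list the genes without a start peak, the 2 highest per role, Ccn1, Ccn2 and Ankrd1; 1 gene that this rule names is not reported here. Members and lists were chosen with earlier results of these data known, and the fold and width limits, promoter motifs and sequences shown after values were seen. Alternatives changed the peak threshold, distances, starts and windows. NumPy 2.4.6, SciPy 1.17.1, pandas 2.3.3, pysam 0.24.0, matplotlib 3.10.9 and Python 3.11.15 were used.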

Additional observations from a re-analysis of the deposited data

How the results depend on the processing

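No paired analysis was possible because the deposited list holds a single library, and no replicate could be left out. All 10 genes had a start peak under the other thresholds, distances and sets of starts, except that 9 had one with a fold of at least 5 (Tead2 lost) and 9 with the 5′-most start alone (Lats2 lost). The count of 46 summits in gene bodies became 28 with a fold of at least 5. The count of 57 summits outside became 25 within 20 kb and 131 within 100 kb. The share of distal windows with AP-1 letters rose from 31.9% to 44.4% with windows reaching 100 bp to either side (44.4% over the list) and 52.8% over whole peaks (49.2%), and that with TEAD letters from 11.1% to 29.2% over whole peaks (24.1%), where longer stretches were searched. The other 37 values for the genes together moved by less than 1.5 times or stayed within their counting interval, as did 84 values for single genes, while 36 moved further. The spread between cultures is unknown, and the weakest summits rest on 11 fragments.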
